A study of Mus musculus with 8 samples.

Results

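The transcriptome described here is that of control osteoclasts grown for 7 days from the bone marrow of 4 *Elmo1*+/- mice, which were chosen by their genotype label and form 4 of the 8 libraries of the series, 1 library per mouse. The other 4 libraries came from *Elmo1*-/- osteoclasts and were used only to check the label. The study asked which genes depend on ELMO1, a cytoplasmic partner of the DOCK exchange factors that activate the GTPase RAC1, in the cells that resorb bone. All 8 mice were 6 to 8 weeks old, and the cells of both genotypes had the same treatment. Femoral marrow was kept for 16 h in a dish. The cells still in suspension were then cultured with 10% medium conditioned by L929 fibroblasts, which secrete macrophage colony-stimulating factor. Only cells that attached in this stage were collected and replated, and these were given 50 ng/ml of GST-RANKL. The control mice carried 1 intact and 1 deleted copy of *Elmo1*, although their titles call them wild-type. The sources used here do not name the strain or sex of any mouse. No step that purifies multinucleated cells is described, so each library holds the RNA of all cells in the dish.

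*Elmo1* had normalized counts of 1528, 1423, 1769 and 1651 in control mice 1 to 4, against 274 to 316 in the *Elmo1*-/- mice. The control libraries held 35861440, 32364053, 20905502 and 32523205 reads on genes. Mice 1 and 2 stood apart from mice 3 and 4 over the whole transcriptome, and this separation touches most values below. The X-linked non-coding RNA *Xist* had normalized counts of 0, 0, 5634 and 5279, and the Y-linked *Ddx3y* had 1302, 1484, 0 and 0. The libraries come from 2 experiments with 2 mice of each genotype in each, but which mice shared an experiment is not given, so the experiment, the sex-linked transcripts and the separation of the pairs cannot be told apart.

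Osteoclasts are multinucleated cells of the monocyte and macrophage lineage that form when precursors receive macrophage colony-stimulating factor and RANKL. RANKL acts through the receptor RANK, NF-kB and AP-1 to switch on the transcription factor NFATC1, which drives genes for cell fusion, acid secretion and matrix digestion. The mature cell seals off a patch of bone with a ring of actin-rich podosomes, dissolves the mineral with protons from a vacuolar ATPase, and digests the collagen with cathepsin K. Other cells of the same culture, such as macrophages that have not fused, share many of these transcripts.

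Of 41834 autosomal and mitochondrial genes in the table, 11690 were on and 23374 were off. Here a gene is on when it had at least 1 TPM (a transcript level per length) in all 4 mice, and off when it stayed under 0.1 TPM in all 4. TPM values are reads divided by exon length and scaled to the same sum in each mouse, so they can be compared between genes. Among protein-coding genes 10137 of 20422 were on (49.6%) and 7312 were off (35.8%), of which 5089 had no read in any mouse. Counts of genes on or off in the lists and families below are to be read against these shares. Of long non-coding genes 337 of 5855 were on. In each mouse, 524, 562, 584 and 625 genes held 50% of the reads. The 96 protein-coding genes with a mean of 1000 TPM or more took 25.9 ± 1.51% of the reads (SD, n = 4 mice), and the 5585 genes between 10 and 100 TPM took 34.1 ± 0.884%.

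Lysosomal enzymes, iron-storage proteins and osteoclast proteases made up the head of the list. *Lyz2*, the lysozyme of macrophages and granulocytes, alone took 4.62, 4.77, 3.49 and 3.36% of the reads in mice 1 to 4, and *Fth1*, the heavy chain of the iron store ferritin, took 2.95, 2.80, 2.12 and 2.16%. Both were higher in mice 1 and 2 than in mice 3 and 4, without overlap. *Mmp9*, a gelatinase secreted by osteoclasts, was the third with 1.16, 1.11, 1.57 and 1.52%, and here mice 3 and 4 were the higher. Among the next genes were the cathepsins *Ctsd* (1.15 ± 0.216%, SD, n = 4), *Ctsb* (0.810 ± 0.0658%) and *Ctsk* (0.730 ± 0.354%), and *Psap* (0.773 ± 0.151%), whose product activates lysosomal lipid hydrolases. The scavenger receptor gene *Marco* followed with 0.633 ± 0.0760%, and then *Prdx1*, a peroxide-reducing enzyme, with 0.631 ± 0.0395%. *Acp5*, which encodes the tartrate-resistant acid phosphatase used to stain osteoclasts, was the 12th gene with 0.423, 0.340, 0.742 and 0.696%. The 10 leading genes held 14.4, 13.9, 12.6 and 12.1% of the reads, the 100 leading genes 30.2, 29.2, 28.3 and 27.2%, and the 14 cathepsin genes together 3.60, 3.25, 3.51 and 3.39%.

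**Figure D1:**
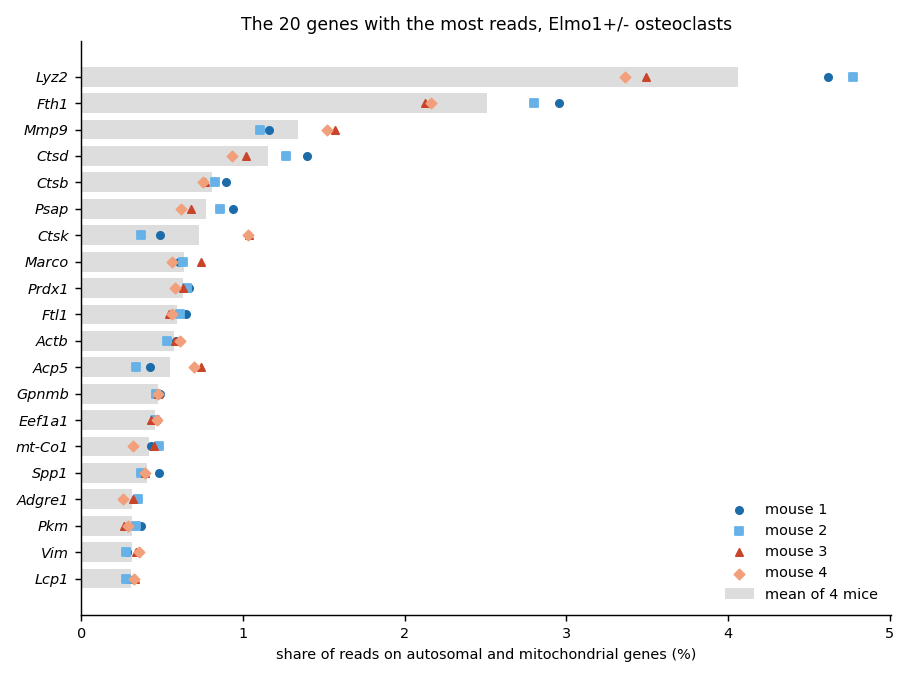
Share of reads of the 20 genes with the most reads (horizontal axis, percent of the reads on autosomal and mitochondrial genes), with a grey bar for the mean and 1 point for each of the 4 mice. Lyz2 and Fth1 lie far to the right of the rest, with mice 1 and 2 higher, while Mmp9, Ctsk and Acp5 have mice 3 and 4 higher.

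Per unit of length *Lyz2* led with 87749, 90912, 69212 and 66462 TPM. The mean of *Fth1* was 18423 ± 2728 TPM (SD, n = 4), followed by *Ctsd* (12474 ± 2069), *Ctsk* (12419 ± 6249), the ferritin light chain gene *Ftl1* (11240.3 ± 698, with only 30.1% of its stretches unique) and *Mmp9* (9690.5 ± 1948). *B2m*, the invariant chain of class I histocompatibility molecules, had 7115 ± 829.6 TPM, *Spp1*, which encodes the bone matrix protein osteopontin, 6303 ± 710.5, and *Hmox1*, the haem-degrading oxygenase, 4158 ± 436. The remaining genes among the 20 highest by TPM were the loci *Gm14303*, *Tpt1-ps3* and *Gm21399*, the actin gene *Actb*, the elongation factor gene *Eef1a1*, the galectin gene *Lgals1*, *Marco*, *Psap*, *Prdx1*, *Acp5* and *mt-Co1*. A stretch of 75 bases is unique when no other gene's transcript holds it, and *Gm14303* and *Tpt1-ps3* had 0% of theirs unique, so their reads could belong to other genes.

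Processed pseudogenes, most of which are copies of mature transcripts, took 3.54, 3.59, 3.51 and 3.75% of the reads, and 1043 of 5484 were on. Where a gene has many copies its own level is uncertain. *Gapdh*, a glycolytic enzyme gene often used as a reference, had 16.7, 16.3, 12.4 and 12.3 TPM with 11.9% of its stretches unique, while its pathway neighbour *Aldoa* had 2033, 1889, 2032 and 2057 TPM with 98.5% unique. *Ppia*, another reference gene, read 2.84, 3.43, 2.10 and 1.89 TPM at 47.0% unique. Protein-coding genes held 95.7 ± 0.109% of the reads and ribosomal protein genes 1.41 ± 0.0979%. The 37 genes of the mitochondrial chromosome took 0.919, 1.01, 0.959 and 0.663%. Mouse 4 was the lowest of the 4, and *mt-Co1*, a subunit of cytochrome oxidase, made up about as much as the rest of the chromosome together, with 0.428, 0.480, 0.452 and 0.317% of the reads. By chromosome, 10 held the highest share (9.18 ± 0.784%), with *Lyz2* on it, and chromosome 18 the lowest of the autosomes (2.04 ± 0.0939%).

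All 15 defining osteoclast markers were on, with a median of 229 TPM, against 49.6% of all protein-coding genes on. The list was chosen with earlier results of these data known, and 23 of 26 macrophage markers were on as well. The count is therefore no separate check of the label. *Ctsk* (GRCm38 chromosome 3, 95499256 to 95509362), the collagen-digesting cathepsin, had 8039, 6066, 17827 and 17745 TPM in mice 1 to 4. *Acp5* (chromosome 9, 22126727 to 22135711) had 5212, 4199.8, 9532 and 8919.5 TPM and *Mmp9* (chromosome 2, 164940780 to 164955850) had 8193, 7837, 11577 and 11156 TPM. Those genes lay among the 12 highest by TPM, and each had mice 3 and 4 above mice 1 and 2, in TPM as in normalized counts. In normalized counts that order was found in 35.1% of all 10389 protein-coding genes compared and the reverse in 35.7%, and in TPM in 48.7% and 22.6%. *Dcstamp* (chromosome 15, 39745930 to 39760938), a membrane protein needed for precursors to fuse, had 226, 181, 504 and 512 TPM. *Calcr* (chromosome 6, 3685680 to 3764714), the calcitonin receptor found on mature osteoclasts, was far lower with 16.2, 21.2, 37.4 and 27.4 TPM. Summed over the list, the markers had 23017, 19559.6, 41865 and 40652 TPM. In bulk RNA, fewer osteoclasts in a dish and less of these transcripts per osteoclast cannot be told apart.

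All 19 listed regulators of the osteoclast programme were on. *Spi1*, which encodes the lineage factor PU.1, had the highest level of them with 404, 400.5, 458 and 454 TPM, and *Jdp2*, an AP-1 family member required for osteoclast formation, had 241, 249, 382 and 411. *Nfatc1* had 39.0, 42.7, 57.1 and 60.1 TPM. Its relatives were lower, with 16.6 ± 1.48 TPM for *Nfatc3*, 8.43 ± 1.76 for *Nfatc2* and 6.70 ± 0.436 for *Nfat5*, and *Nfatc4* did not reach 1 TPM in any mouse (0.114 to 0.245). *Fos*, the AP-1 subunit without which no osteoclasts form, had 127, 106, 129 and 123 TPM and differed little between mice, whereas *Fosl2* had 34.7, 36.1, 60.7 and 55.0 with mice 3 and 4 higher. *Mitf* and *Tfec*, related factors that bind with PU.1 at osteoclast genes, had 21.3 ± 2.44 and 25.9 ± 2.21 TPM, and the lysosomal regulator *Tfeb* 7.39 ± 0.340. *Prdm1* (16.2 ± 3.47) and *Bhlhe40* (56.0 ± 18.1), repressors that remove brakes on the programme, were also on.

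Genes that hold the programme back were on too. All 7 listed repressors of osteoclast formation were on, with 40.2, 39.1, 31.7 and 29.3 TPM for *Irf8*, a factor that holds precursors in the macrophage state. Its normalized counts were lower in mice 3 and 4. *Id1* and *Id3*, inhibitors of basic helix-loop-helix factors, ran the other way, with 2.30, 2.35, 6.13 and 7.15 TPM and 4.63, 5.24, 13.3 and 12.2 TPM.

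Receptors came in very unequal amounts. The immunoreceptor adaptors *Tyrobp* (DAP12) and *Fcer1g* (FcR gamma) had 3630.4 ± 258 and 2428 ± 399 TPM, and the receptor for macrophage colony-stimulating factor, *Csf1r*, had 613 ± 34.6. *Tnfrsf11a*, the gene of RANK itself, had 27.4, 30.5, 37.7 and 40.3 TPM. *Oscar*, a collagen receptor that signals through FcR gamma, had 76.8, 74.4, 114 and 113 TPM, and *Trem2*, a DAP12-coupled receptor, 146, 142, 116 and 107. *Siglec15*, another DAP12 partner, had 10.4, 13.1, 39.5 and 33.3 TPM, so mice 3 and 4 were again the higher. The integrin pair of the sealing zone was *Itgav* at 47.2, 49.6, 115 and 97.8 TPM and *Itgb3* at 95.3, 78.8, 134 and 122 TPM. *Gpnmb*, a transmembrane glycoprotein of lysosomes and melanosomes, was high and steady at 1863 ± 53.5 TPM.

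Among fusion genes, 8 of 9 measured were on. *Atp6v0d2*, a proton pump subunit that also serves fusion, had 289, 279.8, 779.6 and 775 TPM, and *Ocstamp*, the partner of *Dcstamp*, had 38.2, 41.7, 86.3 and 71.4. The tetraspanin gene *Cd9* had 268, 225, 438 and 399 TPM with mice 3 and 4 higher, while the tetraspanin gene *Cd81* had 183, 178, 139 and 121 with mice 1 and 2 higher. *Adam8*, a metalloproteinase-disintegrin of osteoclast precursors, had 727 ± 75.3 TPM. Its relative *Adam12* was off, with no mouse above 0.0392 TPM.

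Every part of the acid-secreting machinery that was listed was expressed. All 21 genes were on, at a median of 251 TPM, and the vacuolar ATPase used 1 main isoform of most subunits. For the a subunit, *Tcirg1*, the osteoclast form, had 403, 372, 510.4 and 473 TPM against 60.4 ± 6.74 for *Atp6v0a1* and 24.0 ± 1.20 for *Atp6v0a2*, and *Atp6v0a4*, a kidney form, was off. *Atp6v1b2* had 643, 639, 1222 and 1180.4 TPM, while *Atp6v1b1* had no read in any mouse. *Atp6v1c1* and *Atp6v1e1* were on (197 ± 50.3 and 346 ± 82.3 TPM) and their tissue-restricted counterparts *Atp6v1c2* and *Atp6v1e2* were off. The d subunit was the exception, with the ubiquitous *Atp6v0d1* at 503, 487, 522 and 538 TPM and the osteoclast form *Atp6v0d2* below it in mice 1 and 2 and above it in mice 3 and 4.

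Of 15 carbonic anhydrase genes 3 were on, namely *Car2* (132, 132, 339 and 314 TPM), which supplies the protons, *Car13* (96.2 ± 9.39) and *Car9* (7.76 ± 1.29). The chloride channel gene *Clcn7*, which balances the charge of the pumped protons, had 221, 191, 289.9 and 289.9 TPM, against 6.47 ± 0.358 for *Clcn3* and 6.43 ± 0.348 for *Clcn6*. A further family member outside the list, *Clcn4*, named after its value was seen, had a mean normalized count of 2075. On that scale, which does not correct for length, *Clcn7* had 15746, *Clcn3* 1333 and *Clcn6* 461. *Ostm1*, the beta subunit of the *Clcn7* channel, had 42.3 ± 4.09 TPM. *Slc4a2*, the bicarbonate-chloride exchanger of the opposite membrane, had 59.8, 50.0, 100.1 and 89.5 TPM. *Snx10* (79.1, 84.8, 128 and 131) and *Plekhm1* (67.8, 64.5, 71.9 and 72.9), which act in vesicle traffic to the resorbing membrane, were on as well.

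Matrix-digesting and lysosomal genes had the highest median of the osteoclast lists, 1052 TPM, and all 17 were on. Cathepsins covered a wide range: 11 of 14 were on, from *Ctsd* at 12474 ± 2069 and *Ctsk* at 12419 ± 6249 TPM through *Ctsb* (3415 ± 208), *Ctss* (2996 ± 335) and *Ctsz* (2776 ± 235) down to *Ctsf* (4.43 ± 1.14), and *Ctsw*, the form of cytotoxic lymphocytes, was off. The cathepsins did not share 1 order of mice, since *Ctsk* was higher in mice 3 and 4 while *Ctsb*, *Ctsd*, *Ctsl*, *Ctss* and *Ctsz* all had lower normalized counts there. *Lgmn*, the protease legumain, had the order of the latter (745, 779.6, 526 and 504 TPM). Of 19 matrix metalloproteinases 9 were on, against 49.6% of all protein-coding genes. Next to *Mmp9* the highest were *Mmp14* (322 ± 61.1 TPM), *Mmp12* (287 ± 123) and *Mmp8* (279 ± 41.7).

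All 22 cytoskeletal and podosome genes were on. *Src*, the kinase needed for the ruffled border, had 61.6, 59.3, 104 and 107 TPM, and *Cttn*, which encodes cortactin, an actin-branching regulator of podosomes, had 27.8, 26.1, 77.6 and 70.9. *Ptk2b*, which encodes the adhesion kinase PYK2, had 88.5, 78.6, 112 and 105 TPM. Of the exchange factors that pair with ELMO proteins, *Dock2* had 61.4, 63.4, 48.4 and 51.2 TPM and *Dock5* 23.6, 26.5, 49.4 and 47.1, so *Dock2* was higher in mice 1 and 2 and *Dock5* in mice 3 and 4. Their target genes *Rac1* and *Rac2* were level, at 207 ± 5.97 and 1069.7 ± 55.0 TPM. *Elmo1* had 9.52, 9.18, 11.9 and 11.4 TPM, *Elmo2* 24.2, 23.4, 27.0 and 25.2 and *Elmo3* 1.28, 1.45, 1.22 and 1.45, so that *Elmo2* was the highest of the family in all 4 mice.

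Signals that osteoclasts send to bone-forming cells were partly present, with 10 of 14 genes on. *Spp1*, *Ccl6* (1609 ± 303 TPM) and *Ccl9* (1128 ± 145) were abundant. *Sema4d* (97.3, 98.3, 170.1 and 154) and *Pdgfb* (50.1, 44.8, 102 and 99.9) were at intermediate levels, with mice 3 and 4 the higher. *Wnt10b*, *Bmp6* and *Slit3* were off in all mice, and *Cthrc1* lay around 1 TPM (0.906, 1.16, 1.22 and 1.51). *Ckb*, the brain-type creatine kinase gene that osteoclasts induce, had 1294, 967, 2712 and 2614 TPM, with the muscle forms *Ckm* and *Ckmt2* off.

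The promoters of these genes fell into types that differ in their CpG dinucleotides, and windows of 300 bases (250 before to 50 after a start, RefSeq, GRCm38.p6) are shown for genes of both types with each CpG in capitals. Of the 15 osteoclast markers 7 had a window, and *Mmp9*, *Dcstamp*, *Ocstamp*, *Atp6v0d2*, *Itgb3*, *Nfatc1*, *Siglec15* and *Car2* had none. The first set is poor in CpG: *Ctsk* (chr3:95498960-95499259, plus strand), *Acp5* (chr9:22135697-22135996, minus strand), *Calcr* (chr6:3764664-3764963, minus strand), *Oscar* (chr7:3616108-3616407, minus strand) and, for comparison, the most abundant gene *Lyz2* (chr10:117282223-117282522, minus strand). The second set, the pump subunit gene *Tcirg1* (chr19:3907084-3907383, minus strand) and the channel gene *Clcn7* (chr17:25133141-25133440, plus strand), is rich in it. Each line runs 5′ to 3′.
Ctsk: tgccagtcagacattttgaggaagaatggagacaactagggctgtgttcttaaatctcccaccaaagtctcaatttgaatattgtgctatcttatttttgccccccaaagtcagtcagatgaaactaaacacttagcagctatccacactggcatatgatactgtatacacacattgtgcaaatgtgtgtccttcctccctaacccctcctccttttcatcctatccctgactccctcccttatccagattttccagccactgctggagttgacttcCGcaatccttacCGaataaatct
Acp5: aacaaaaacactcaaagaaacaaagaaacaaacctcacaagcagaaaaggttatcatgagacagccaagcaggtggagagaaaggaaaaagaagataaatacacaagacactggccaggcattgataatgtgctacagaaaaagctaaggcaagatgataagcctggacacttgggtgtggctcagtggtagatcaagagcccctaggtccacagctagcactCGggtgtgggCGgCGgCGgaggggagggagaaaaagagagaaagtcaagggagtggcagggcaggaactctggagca
Calcr: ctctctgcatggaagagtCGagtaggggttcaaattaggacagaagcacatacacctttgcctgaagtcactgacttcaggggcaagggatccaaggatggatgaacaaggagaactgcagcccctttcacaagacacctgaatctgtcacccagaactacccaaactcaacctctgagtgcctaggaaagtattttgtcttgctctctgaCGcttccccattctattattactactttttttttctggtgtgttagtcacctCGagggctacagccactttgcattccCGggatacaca
Oscar: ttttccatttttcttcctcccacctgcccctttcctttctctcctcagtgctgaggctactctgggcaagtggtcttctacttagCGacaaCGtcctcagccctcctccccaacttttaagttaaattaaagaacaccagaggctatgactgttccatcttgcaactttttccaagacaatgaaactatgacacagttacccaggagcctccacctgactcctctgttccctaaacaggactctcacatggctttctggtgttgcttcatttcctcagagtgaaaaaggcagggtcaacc
Lyz2: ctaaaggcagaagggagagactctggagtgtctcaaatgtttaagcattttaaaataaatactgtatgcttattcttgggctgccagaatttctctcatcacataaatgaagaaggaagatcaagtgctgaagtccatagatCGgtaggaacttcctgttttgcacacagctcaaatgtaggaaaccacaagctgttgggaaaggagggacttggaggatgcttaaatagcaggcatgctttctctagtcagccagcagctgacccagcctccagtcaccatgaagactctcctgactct
Tcirg1: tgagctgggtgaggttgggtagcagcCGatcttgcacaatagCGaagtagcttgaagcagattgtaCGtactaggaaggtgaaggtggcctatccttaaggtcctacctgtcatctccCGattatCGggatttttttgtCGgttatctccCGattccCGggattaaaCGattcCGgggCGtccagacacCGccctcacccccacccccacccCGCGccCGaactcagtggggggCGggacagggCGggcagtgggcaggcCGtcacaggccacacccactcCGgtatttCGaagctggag
Clcn7: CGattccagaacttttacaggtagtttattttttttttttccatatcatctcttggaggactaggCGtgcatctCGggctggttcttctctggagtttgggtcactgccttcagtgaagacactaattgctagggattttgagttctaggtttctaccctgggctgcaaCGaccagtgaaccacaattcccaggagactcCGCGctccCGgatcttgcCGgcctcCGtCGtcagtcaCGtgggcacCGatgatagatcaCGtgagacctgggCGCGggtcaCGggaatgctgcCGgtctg

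The *Ctsk* window holds 2 CpG, that of *Acp5* 4, *Calcr* 4, *Oscar* 2 and *Lyz2* 1, against 20 in *Tcirg1* and 17 in *Clcn7*. Set against what the base composition would give, the ratio of observed to expected CpG was 0.16 for *Ctsk* and 0.77 for *Tcirg1*. Among 15513 protein-coding genes with a window the ratio had a median of 0.79 for the 8095 genes that were on and 0.23 for the 5282 that were off. It was over 0.5 in 83.3% of the former and 23.6% of the latter. The share did not go on climbing with level: it was 86.4% for genes between 10 and 100 TPM and 51.5% (35 of 68) for those of 1000 TPM or more.

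A TATA box (the letters TATAAA on the sense strand within 15 to 45 bases before the start) followed the reverse course, with 5.62% of promoters of genes under 0.1 TPM, 0.800% between 10 and 100 TPM and 8.82% (6 of 68) at 1000 TPM or more. The ratio of observed to expected CpG was over 0.5 in 58.2% of all promoters. By list it was over 0.5 in 14 of 15 windows of acid secretion genes and 14 of 17 of cell cycle genes, lists whose members were all on, against 83.3% over all genes that were on. Macrophage markers had 0 of 18, inflammatory genes 3 of 18 and osteoclast markers 3 of 7. The TATA box stood in 6 of the 18 inflammatory windows, those of *Ccl8*, *Ccl12*, *Cxcl3*, *Il1a*, *Il1b* and *Tnf*, against 2.95% of all promoters. The AP-1 letters TGANTCA, read on both strands, were in none of the printed windows and in 6.99% of all. The NFAT core GGAAA, on either strand, was in 5 of the 7 osteoclast marker windows, against 60.2% of all. Those 7 leave out *Lyz2* and include *Tnfrsf11a*, whose window is not printed. It holds 43 CpG (ratio 0.976) and no NFAT core. All such hits are matches of letters and not sites.

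**Figure D2:**
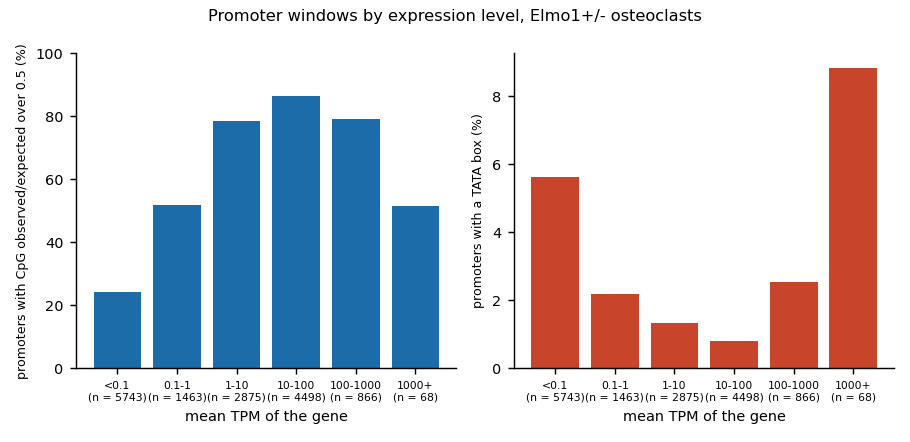
Promoter windows of protein-coding genes grouped by the gene's mean TPM over the 4 mice (horizontal axes, with the number of promoters), giving the percent with a CpG observed to expected ratio over 0.5 (left) and the percent with a TATA box (right). CpG-rich windows peak between 10 and 100 TPM and TATA boxes are most frequent in the lowest and highest classes.

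Macrophage genes remained strongly expressed beside the osteoclast genes. Of 26 autosomal macrophage markers 23 were on, at a median of 100.2 TPM. *Adgre1*, which encodes the surface protein F4/80, had 2635, 2693, 2561 and 2054 TPM, *Cd68*, a lysosomal membrane protein also made by osteoclasts, 1797, 1682, 1828 and 1929, and *Marco* 7870.5, 8177, 10008 and 7565. The complement genes *C1qa*, *C1qb* and *C1qc* had 972 ± 308, 1888 ± 582 and 501 ± 144 TPM. *Mrc1*, the mannose receptor gene, had 129, 148, 58.4 and 51.3 TPM and *Apoe*, the apolipoprotein gene, 227, 278, 84.2 and 78.0, with mice 1 and 2 the higher in both. The 3 members that were off were *Timd4*, *Clec4f* and *Retnla*. *Timd4*, of some resident macrophages, reached 0.0369 TPM in 1 mouse, and *Clec4f*, of liver macrophages, and *Retnla*, of macrophages under interleukin-4, had no read in any mouse. *Arg1* (86.1, 92.5, 131 and 105 TPM) and *Nos2* (60.9, 52.2, 27.8 and 23.4), which compete for arginine and are used to tell apart activation states, were both on.

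Monocyte and progenitor genes were mostly low. Of 14 markers 6 were on, against 49.6% of all protein-coding genes, 6 lay between the limits and 2, *Cd34* and *Flt3*, were off. *Hp*, which encodes haptoglobin, was the highest with 80.9 ± 12.6 TPM. *Ccr2*, the receptor that brings monocytes out of the marrow, had 0.608, 1.08, 0.516 and 1.02 TPM, *Ly6c2* 7.42, 6.85, 4.48 and 8.50 and *Kit*, of stem and mast cells, 0.0971, 0.198, 0.145 and 0.149.

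Neutrophil and granule genes showed a split between a few abundant and many scarce members. *S100a8*, a calcium-binding alarmin, had 1856, 2071, 1406 and 1332 TPM, *S100a9*, its partner, 227, 388, 79.7 and 322, and *Lcn2*, an iron-siderophore binding protein, 152, 120.4, 117 and 109. Primary granule genes were low and uneven, with 1.90, 1.90, 0.491 and 7.00 TPM for *Mpo* (myeloperoxidase), 2.27, 1.47, 0.131 and 3.03 for *Elane* (neutrophil elastase), 2.65, 1.86, 0.375 and 6.50 for *Ctsg* and 2.08, 1.71, 0.597 and 7.85 for *Prtn3*. In those genes mouse 4 was the highest and mouse 3 the lowest. The surface markers *Ly6g* (0.383, 0.170, 0.137 and 0.440 TPM) and *Cxcr2* (0.308, 1.21, 0.254 and 0.571) of mature neutrophils stayed near or under 1 TPM. In all 11 of 18 were on and 0 were off, against 49.6% and 35.8% of all protein-coding genes. With mouse 3 left out, 16 were on in the other 3 mice.

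Dendritic cell genes were on in 9 of 16 cases, near the 49.6% of all protein-coding genes, at a median of 2.01 TPM. *Cd74*, the class II invariant chain, was the highest with 38.3, 47.7, 30.0 and 28.4 TPM, while the class II genes *H2-Ab1*, *H2-Aa* and *H2-Eb1* had 5.21 ± 1.48, 1.87 ± 0.608 and 3.33 ± 1.05 TPM and *Ciita*, their master regulator, was off. Defining genes of dendritic subsets, *Zbtb46* (0.271, 0.377, 0.805 and 0.526 TPM), *Xcr1* (0.356, 0.523, 0.552 and 0.503) and *Clec9a* (0, 0.0487, 0.0785 and 0.176), stayed under 1 TPM. *Fscn1*, an actin-bundling protein, had 24.0 ± 6.43 TPM.

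Lymphoid genes were close to absent. Of 22 B, T and NK cell markers 13 were off, among them *Cd3e*, *Cd3g*, *Ncr1*, *Gzma* and *Prf1* with no read in any mouse. The 3 that were on were *Cd79b* (13.7 ± 3.48 TPM), *Ighm* (9.45, 10.1, 4.18 and 6.90) and *Trac* (1.85, 2.06, 5.53 and 6.56). Their partners were not, since *Cd79a* had 0.297, 0.0551, 0.266 and 0.171 TPM and *Cd3d* 0, 0.0442, 0.0712 and 0. Of 12 mast cell, basophil and eosinophil markers only *Prg2*, an eosinophil granule protein, was on (1.64, 2.30, 2.62 and 4.15 TPM).

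The red cell genes *Hba-a1*, *Hba-a2*, *Hbb-bs* and *Hbb-bt* had no read in any mouse, though each of these globin genes has a near-identical copy, with 19.0 to 43.4% of stretches unique. *Pf4* and *Ppbp*, chemokine genes of platelets, were the exceptions of that list with 2729.6, 2294, 3213 and 2849 and 116, 90.1, 194 and 151 TPM, while the platelet integrin gene *Itga2b* (0.106, 0.103, 0 and 0.0608) and *Gp9* (0.246, 0.182, 0 and 0.0941) were not on. Stromal, osteoblast, fat and endothelial markers had 9 of 23 on, against 49.6% of all protein-coding genes, and none was above 28.3 TPM in any mouse. Collagen genes *Col1a1* and *Col1a2* had 4.89 ± 1.51 and 2.61 ± 0.870 TPM, *Tnfrsf11b*, which encodes the RANKL decoy osteoprotegerin, had 1.66, 2.36, 11.1 and 4.85, and *Tnfsf11*, the gene of RANKL itself, was off, as were the fat genes *Adipoq* and *Plin1*.

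**Figure D3:**
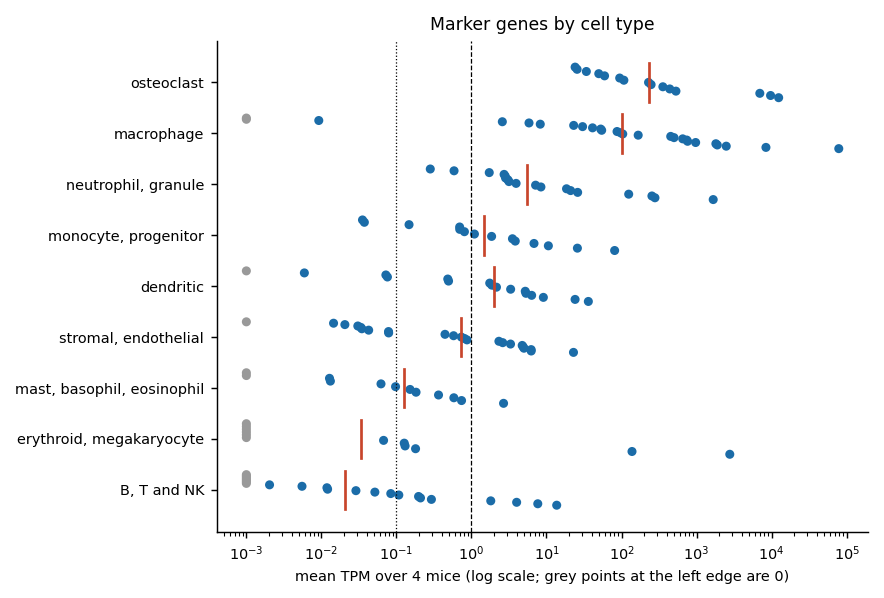
Mean TPM over 4 mice (horizontal axis, log scale) of each measured marker gene in 9 cell type lists, 1 point per gene (grey at the left edge where no mouse had a read), with a red line at the list's median, a dashed line at 1 TPM and a dotted line at 0.1 TPM. All osteoclast markers and most macrophage markers lie above 1 TPM, and the B, T and NK cell list has its median under 0.1 TPM.

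The cultures expressed a broad set of cytokine and chemokine genes. All 24 were on, led by *Ccl6*, *Ccl2* (1236 ± 157 TPM), *Ccl9*, *Ccl3* (1074 ± 156) and *Ccl7* (997 ± 104). *Tnf* had 249, 187, 195 and 167 TPM, while *Il6* stayed at 4.84, 4.53, 3.83 and 4.44. Of the interferon-stimulated genes 21 of 22 were on at a median of 39.4 TPM, with *Ifi27l2a* (359.6, 278, 142 and 232), *Isg15* (191, 239.7, 169.6 and 243) and *Oas1a* (169.7 ± 26.7) the highest. Toll-like receptor genes were on in 6 of 9 autosomal cases, against 49.6% of all protein-coding genes. *Tlr2* had 164 ± 24.3 TPM and *Tlr4* 30.1 ± 4.76, and *Tlr11* and *Tlr12* were off. Class I presentation was high, with *H2-D1* at 1955 ± 368 and *H2-K1* at 788 ± 182 TPM.

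All 22 cell cycle genes were on. *Mki67*, a protein of dividing cells, had 64.0, 68.6, 27.3 and 38.3 TPM, *Top2a*, the DNA topoisomerase of dividing cells, 63.7, 66.6, 40.7 and 58.4, and *Ccnb1*, the mitotic cyclin B1, 19.8, 19.9, 11.1 and 15.4. Mouse 3 had the lowest value in each. Over genes and mice, *Mcm2* to *Mcm7*, which form the replication helicase, ranged from 23.1 to 122 TPM. *Ccnd1*, the cyclin of early growth, was the highest of the list with 122, 136, 186 and 182 TPM, followed by *Pcna*, the sliding clamp of replication, with 148, 138, 145 and 169.9.

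Glycolysis genes were on in 23 of 24 cases, with *Aldoa*, *Pkm* (1603 ± 206 TPM) and *Ldha* (1014 ± 57.8) the highest. *Slc2a1* (176, 155, 130.5 and 107) was the main glucose transporter gene, and *Slc2a3* stayed at 1.91, 1.96, 0.963 and 1.89 TPM. Iron and antioxidant genes were on in 19 of 20, from ferritin, *Prdx1* and *Hmox1* to the transferrin receptor gene *Tfrc* (397, 296, 800.1 and 692 TPM), which was higher in mice 3 and 4. *Hamp*, the hormone gene hepcidin, was not on. Cholesterol synthesis genes were all on (19 of 19) at a median of 18.1 TPM, and so were the 23 genes of the ATF4 and endoplasmic reticulum stress list, with *Calr* at 1344 ± 45.7 and *Atf4* at 309.7 to 338 TPM. Among integrin genes 10 of 18 alpha and 5 of 8 beta chains were on, near the 49.6% of all protein-coding genes. The alpha chain gene *Itgam*, a myeloid marker, was uncertain with 28.3% of its stretches unique. Of the oxidase subunits *Cyba* had 1473 ± 59.9 TPM and *Ncf1* 310.3 ± 44.2. *Nox4*, the catalytic subunit gene of a separate oxidase, had 0.0426, 0.0379, 0.137 and 0.127 TPM. The catalytic subunit gene of the phagocyte oxidase, *Cybb*, is X-linked and so was not described.

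Most genes differed little between the 4 mice. Over 10389 protein-coding genes with a mean normalized count of at least 50, the SD between mice of log2(normalized count + 1) had a median of 0.144, and 80% of genes lay between 0.0562 and 0.376. The spread that counting alone would give had a median of 0.0485, and 956 genes were at or under their own counting spread. An SD over 1 was found in 49 genes (0.472%), and in 74 when mouse 1 was left out. The first principal component held 81.2% of the variance, with mice 1 to 4 at -19.2, -21.0, 22.4 and 17.7, and the second held 11.9% and mainly parted mouse 3 from mouse 4. Of the 10389 genes, 3651 had mice 3 and 4 both above mice 1 and 2 (35.1%) and 3706 had both below (35.7%). Each of the other 4 pairs of mice was the upper pair in 6.19 to 7.94% of genes. On the TPM scale this split moved to 48.7% above and 22.6% below, since TPM shifted the median gene by -0.073 in mouse 1 and 0.075 in mouse 4 (log2, against each gene's mean). The orders given from here on are those of normalized counts.

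The osteoclast markers and most acid secretion genes lay on 1 side of the separation, while other osteoclast lists were split. All 15 of 15 osteoclast markers had mice 3 and 4 above mice 1 and 2, on the deposited scale, with equal totals, with TMM and in TPM alike, against 35.1% of all genes in normalized counts and 48.7% in TPM. Their median SD was 0.46, with *Siglec15* (0.89), *Atp6v0d2* (0.78), *Ctsk* (0.74) and *Dcstamp* (0.72) the most variable and *Tcirg1* (0.16) and *Tnfrsf11a* (0.19) the least. The acid secretion list had 19 of 21 genes in that order and 0 in the reverse, with *Atp6v0d1* and *Plekhm1* in neither. *Car2* had normalized counts of 4071, 3927, 9681 and 8733, and *Atp6v1b2* had 43477, 41763, 76348 and 71896, without overlap between the pairs. Podosome genes had 11 of 22 above and 6 below, and the matrix list 6 above and 10 below. Regulators had 9 of 19 above and 5 below, receptors 7 of 14 and 6, and fusion genes 5 of 8 and 3. Repressors had 3 of 7 above and 3 below, and genes of signals to bone-forming cells 6 of 10 and 2. Of all genes, 35.1% were above and 35.7% below. In TPM the podosome count was 16 above and 3 below, and with equal totals 12 and 4.

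Macrophage markers lay mostly on the other side. Of the 23 that could be followed, 16 had mice 3 and 4 below mice 1 and 2, *Arg1* alone had them above, and 6 had neither order, against 35.7% of all genes below. On the TPM scale the count was 15 below and 3 above, against 22.6% of all genes below. Normalized counts of *Apoe* were 6177, 7328, 2121 and 1914 (SD 1.01), those of *Mrc1* 10475, 11636, 4384 and 3749.9 (SD 0.84) and those of *Nos2* 3425, 2841, 1447 and 1184 (SD 0.74). The ATF4 and endoplasmic reticulum stress list had 17 of 23 genes below and 0 above (in TPM 15 and 2), glycolysis 16 of 24 below, and the cell cycle list 13 of 22 below and 2 above, the cyclin D genes *Ccnd1* and *Ccnd2*. Antigen presentation had 11 of 16 below and 1 above, and all 6 Toll-like receptor genes that could be followed were below. *Mki67* had normalized counts of 8203, 8511, 3234 and 4423 and *Birc5*, a protein of the dividing spindle, 2150.2, 2256, 1067 and 1390.5, again without overlap. The inflammatory list was more mixed, with 10 below, 5 above and 9 in neither order. The part of the experiment or of the sex-linked transcripts in these orders was not tested.

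**Figure D4:**
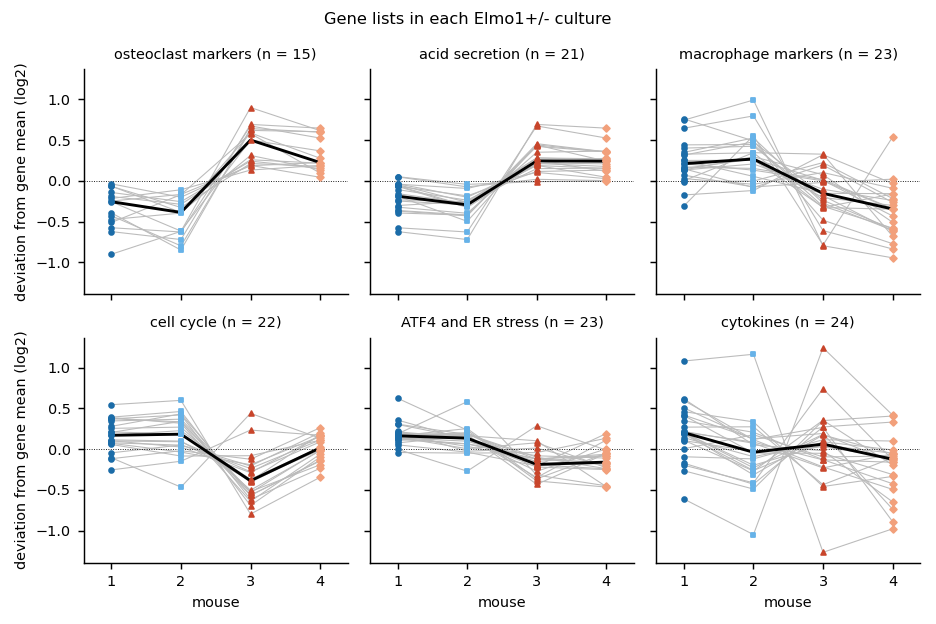
Deviation of each gene from its own mean over the 4 mice (vertical axis, log2 of normalized count plus 1) for 6 gene lists, with mice 1 to 4 on the horizontal axis, 1 thin line per gene and the list's median in black. Osteoclast marker and acid secretion genes are higher in mice 3 and 4, macrophage and ATF4 genes are higher in mice 1 and 2, and cell cycle genes are lowest in mouse 3.

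The most variable gene was *Egr1*, an immediate early transcription factor gene, with normalized counts of 1137, 125, 44.2 and 58.1 (SD 2.11). Mouse 1 was far above the other mice, and without it the SD was 0.765, while the related *Egr2* (143, 114, 229.9 and 202) was not raised in it and *Fos* (3803, 3081, 3581 and 3309) was level. Of 13 early genes that could be followed 7 had mice 3 and 4 below, against 35.7% of all genes, and 1, *Egr2*, had them above, against 35.1%. Some other early genes were highest in mouse 1 as well, with 4418, 3309, 1779 and 1489 for *Ier3* and 1157, 778, 478 and 393 for *Btg2*. *Wdfy1*, an endosomal adaptor gene, came next with 373, 289, 2547 and 2494 (SD 1.70), a low pair and a high pair without overlap. Of the 20 most variable genes 13 had mice 3 and 4 above and 5 below. These 20 were picked by their spread over the same 4 mice, so separated pairs are favoured among them.

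Those above were *Wdfy1*, *Mustn1*, *Anxa8*, *Ifi202b*, *Dtna*, *Fam107a*, *Clic5*, *H2-M2*, *Dsg2*, *Corin*, *Epb41l4b*, *Arhgap42* and *Pla2g2d*. *Anxa8*, an annexin gene, had 74.5, 57.3, 498 and 330.3 and *Clic5*, an intracellular chloride channel gene, 180.3, 119.6, 655 and 659.6. Those below included *Egr1*, *Ccl8*, *Cd177* and *Ambp*. *Ccl8*, a monocyte-attracting chemokine gene, had 376, 398, 73.1 and 89.5 and *Cd177*, a neutrophil surface gene, 108, 145, 21.3 and 43.8. The other two were the granule genes *Mpo* (82.8, 80.1, 19.8 and 275, SD 1.52) and *Prtn3* (46.0, 36.6, 12.2 and 156, SD 1.47), for which mouse 4 was the highest and mouse 3 the lowest.

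Among well-expressed genes, those with a mean normalized count of at least 1000, 9 of the 20 most variable had mice 3 and 4 above and 9 below. The shares over all genes were 35.1% and 35.7%. Here too the 20 were picked by their spread over the same mice, which favours separated pairs. Above were *Wdfy1*, *Pmaip1*, *Scin*, *Tm4sf19*, *Cd276*, *Cyp2s1*, *Arsb*, *Akap6* and *Cttn*. *Scin*, an actin-severing protein gene, had 2339, 2254, 7128 and 6062, *Tm4sf19*, a tetraspanning membrane protein gene, 996, 708, 2392 and 2277, and *Arsb*, a lysosomal sulfatase gene, 6332, 5495, 17018 and 14538. Below were *Fxyd2*, *Ifitm6*, *Apoe*, *Gas6*, *Slc9a9*, *Siglec1*, *Mrc1*, *Hpse* and *Slc6a12*. *Gas6*, the ligand of the receptors that take up dying cells, had 5085, 5347, 1729.8 and 1529 and *Siglec1*, the sialoadhesin of macrophages, 15299, 16148, 5156 and 5516. *S100a9* (1512, 2493, 490.3 and 1929, SD 1.03) and *Akr1c12* (1001, 374, 1000.4 and 1762, SD 0.93) followed neither order, with *S100a9* lowest in mouse 3 and *Akr1c12* lowest in mouse 2.

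The steadiest genes of that level were *Erp29* (9787, 9806, 9808 and 9822, SD 0.0021), *Pid1* (13789.5, 13667, 13715 and 13687, SD 0.0056), *Nsa2*, *Fbxo33* and *Zc3h13*, all under their own counting spread. *Erp29* encodes a chaperone of the endoplasmic reticulum. Among common reference genes the SD was 0.073 for *Polr2a*, 0.078 for *Ywhaz*, 0.084 for *Actb*, 0.23 for *B2m* and 0.28 for *Sdha*. Of the genes named, *B2m* and *Sdha* spread more than the median gene. Over all 14 reference genes followed the median SD was 0.14. The SD of *Gapdh* and *Ppia*, whose own levels are uncertain, is not given.

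**Figure D5:**
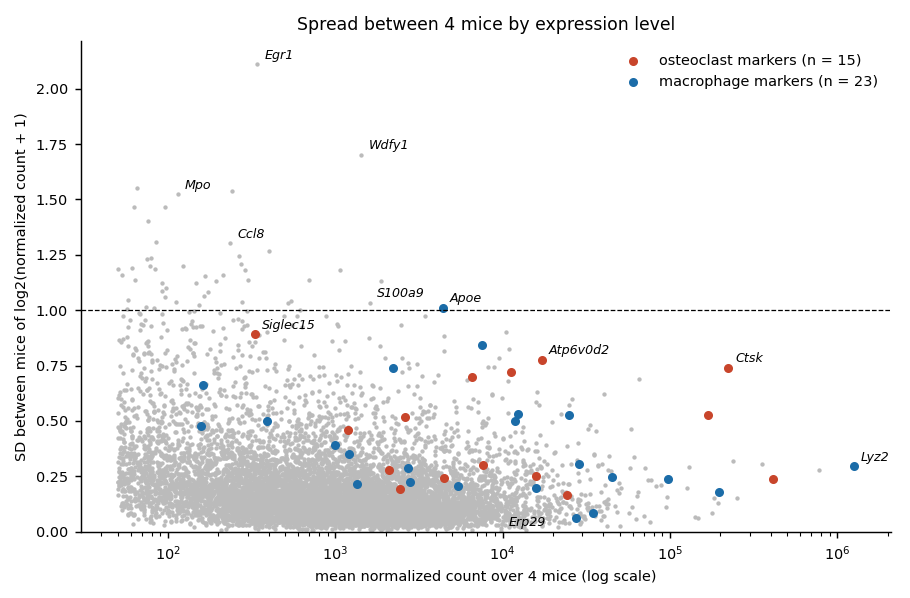
SD between the 4 mice of log2(normalized count + 1) (vertical axis) against the mean normalized count (horizontal axis, log scale) for 10389 protein-coding genes in grey, with the osteoclast markers in red and the macrophage markers in blue and a dashed line at an SD of 1. Egr1 and Wdfy1 are the highest points, and Ctsk (SD 0.74) is the red point farthest up among the genes with the highest means.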

How the data were processed

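Osteoclast RNA from 4 *Elmo1*+/- mice was analysed, with 1 polyadenylated RNA library per mouse, sequenced in pairs of 75 bases. The authors deposited read counts per gene divided by DESeq2 size factors, which is a signal and not raw counts. Per the labels, FastQC, STAR, featureCounts and DESeq2 were used; no source used here states their versions or the genome build and gene models. The same table holds fold changes and p-values of the authors' own comparison, which were not used. Groups came from the genotype label, and the 4 libraries differed by far more than sampling noise.

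Reads were recovered by dividing each column by its smallest step (all values whole within 0.01). Genes were matched by identifier to GENCODE M21 (GRCm38), 46005 of 46517; those unmatched held at most 0.082% of reads in a library. Only autosomal and mitochondrial genes were described, and depth was 35861440, 32364053, 20905502 and 32523205 reads in mice 1 to 4. At that depth the 95% Wilson interval of any share given reached at most 0.0215 percentage points to either side, which covers counting error only, so the SD between mice sets the precision. TPM used the union of exons as length. Variation was the SD of log2(normalized count + 1) over protein-coding genes with a mean of at least 50.

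Named were the 20 genes highest by share and by TPM, members of lists of known function, the 20 most variable genes at a mean of at least 50 and of at least 1000, and the 5 steadiest at 1000. Members, lists and rules were chosen with earlier results of these data known. A few genes that met these rules are not reported here. No group test was made. The steps were tested on simulated data and run with Python 3.11.15, pandas 2.3.3, numpy 2.4.6, scipy 1.17.1, matplotlib 3.10.9, R 4.3.3 and edgeR 4.0.16. Alternatives were other thresholds, lengths, scalings, pseudocounts and filters, and leaving out each mouse.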

Additional observations from a re-analysis of the deposited data

Results flagged for a closer look

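Dixon's ratio is the gap of the highest or lowest mouse over the range of the 4. At its 95% critical value it flagged 13 of 272 values. That value is set to flag about 1 in 20 groups of 4 independent, normally distributed values. Here the mice fell into pairs, many genes were chosen by name or by spread, and several flags rest on very few reads. The number flagged therefore cannot be judged against that rate. All flagged values were normalized counts on the log2 scale, and no share of reads was among them.

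Mouse 3 was the lowest for the replication helicase genes *Mcm3* (ratio 0.968, normalized counts 3631, 3607, 2793 and 3600.4) and *Mcm7* (ratio 0.859, 2151, 2129, 1517 and 2251), and for the glucose transporter gene *Slc2a3* (ratio 0.846, 177, 175, 82.2 and 157). Mouse 4 was the highest for *Polr2a*, the large subunit of RNA polymerase II (ratio 0.909, 4955, 4947, 4994 and 5492), and the lowest for the chloride channel gene *Clcn3* (ratio 0.831, 1360.2, 1376, 1395 and 1202). Mouse 1 was the lowest for *Nfatc3* (ratio 0.859, 2182, 2381, 2415 and 2415). The other flags were at the level of very few reads. *Adipoq*, *Timd4*, *Bmp6*, *Atp6v0a4*, *Hamp* and *Tlr11* each had reads in 1 mouse only and none in the others (ratio 1 each). *Wnt10b* had none in mouse 4 alone (ratio 0.848, 1.84, 1.98, 1.52 and 0).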

How the results depend on the processing

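Shares, on and off counts and measures of spread have no direction that could reverse, while some orders of mice did reverse under other scalings. Of 101 alternative values of the shares, on and off counts and measures of spread, 91 stayed within a set tolerance and 10 moved. The tolerance was the SD between mice for shares and 1.5 times of the count given for counts. For the median SD and the first component it was the SD of the values got by leaving out 1 mouse, so those values were judged by their own spread. The moved values all concern the spread between mice. With a mean normalized count of at least 10 the median SD was 0.158, 134 genes had an SD over 1 and the first component held 75.0%, and with at least 200 the median SD was 0.132 and 19 genes were over 1, since the filter changes which low genes are tested. The square root of the edgeR tagwise dispersion had a median of 0.130. That is a coefficient of variation without counting noise and not a log2 value. It is therefore not on the scale of the median SD, and its place among the moved values does not mean a smaller spread. Leaving out 1 mouse at a time gave a median SD of 0.132 to 0.146, 36 to 74 genes over 1 (the latter without mouse 1) and a first component of 82.3 to 89.9%. The cause was not tested. All 15 osteoclast markers were on under every threshold, length and left-out mouse tried. Among values of single genes, 501 of 3485 moved, 106 of them when the longest transcript replaced the union of exons. The order of mice under other scalings was compared after seeing the data. *Rac1* and *Fbxo33* had mice 3 and 4 below in normalized counts and above in TPM, and the cholesterol list went from 3 above and 6 below to 5 and 4 with equal totals and 5 and 2 in TPM. Over all genes, mice 3 and 4 were above in 40.8% and below in 28.9% with equal totals, against 35.1% and 35.7% in normalized counts. No test was made, and mice could not be grouped by experiment because the experiment of each mouse is not given. Depth limits genes of few reads: in mouse 3, the shallowest library, 1 read on 1 kb of exon was worth 0.129 TPM.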
